A study of Mus musculus with 6 samples.

Results

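Otx2, Pax6, Six3, Lhx2, Sox9 and Vax2 are transcription factors that pattern the optic cup, and several of them act again in the retinal pigment epithelium (RPE). These 6 genes were taken by name from the 52636 genes counted in single cells of mouse RPE and choroid, and their levels were followed across 8 annotated cell types and 2 Dram2 genotypes. The series holds 6 samples from male C57BL/6J mice aged 12 to 16 months, 3 labelled Dram2 wt/wt and 3 labelled Dram2 ko/ko. The ko allele is a constitutive CRISPR/Cas9 deletion of exon 4 of Dram2, a lysosomal membrane protein gene linked to retinal dystrophy, and the wt/wt samples carry the intact gene on the same strain. All samples carry the tissue label choroid, and the methods describe RPE and choroid dissociated with papain and kept in culture for a week before capture, so every level below is that of cultured cells. Whether a sample is 1 animal or several pooled ones is not given in the sources used here, so the p-values measure the spread between these samples.

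The vertebrate eye field is set up by a small group of homeobox genes, among them Pax6, Six3, Lhx2 and Rax. As the optic vesicle folds into a cup, its outer layer becomes the RPE and its inner layer the neural retina, while the rim gives rise to the ciliary body and iris. Otx2, a bicoid-class homeobox factor, is needed for RPE identity together with the pigment cell factor Mitf, and it drives RPE genes such as Rlbp1 and Best1. Lhx2, a LIM-homeobox factor, is needed for the vesicle to become a cup. Six3 is a SIX-family homeobox factor that represses Wnt signalling in the forebrain and retina. Sox9 is an HMG-box factor that works with Otx2 on visual cycle genes in the RPE and is also a skeletal and neural crest factor. Vax2 is a homeobox factor that marks the ventral optic cup.

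The cells numbered 25428, of which 1492 were annotated as RPE, 23256 as one of 4 fibroblast types, 288 as Endothelial, 308 as Pericyte and 84 as Myeloid. Sums of unique molecular identifiers (UMIs, counted molecules) ranged from 96808998 to 122746184 per sample. The RPE annotation was compared with 15 marker genes. All 15 had UMIs in RPE cells, but all 15 also had UMIs in Fibroblast cells, so detection alone does not check the name. In RPE cells 7 of them averaged 5 or more CPM (the UMIs of a gene divided by all UMIs of the summed cells and scaled to a common total). Over both genotypes the 15 summed to 307 to 1197 CPM in RPE cells and 5.66 to 11.7 CPM in Fibroblast cells. Otx2 is itself among the 15 and the 7, so this comparison and the sums of the 15 are not independent of it. Krt18, a keratin of simple epithelia, stood at 710 ± 316 CPM (SD, n = 6) and Rgr, an opsin of the RPE, at 45.6 ± 34.9 CPM. The 15 markers summed to a mean of 887 CPM in RPE cells, so their sums are mostly Krt18. The retinoid isomerase Rpe65 was at 0.693 ± 0.617 CPM and the chloride channel Best1 at 0.196 ± 0.230 CPM, so these mature RPE markers were nearly absent from the cells called RPE. The name Pericyte is used as deposited, but 3 of 6 pericyte markers (Kcnj8, Higd1b and Ndufa4l2) had no UMI in those cells, whose pericyte list summed to 196 to 269 CPM over samples against 155 to 231 CPM in Fibroblast cells, while 5 Schwann cell markers summed to 779 to 2156 CPM against 3.53 to 4.78 CPM. Dram2 itself was read at 33.4 to 39.6 CPM in the wt/wt samples and 28.3 to 30.7 CPM in the ko/ko samples over all cells. In its coding transcripts 301 to 2810 bases lie between exon 4, as each transcript numbers it, and the 3′ end from which the libraries were read. These values therefore do not check the deletion. Whether that exon is the deleted one in every transcript was not checked. RPE cells were unevenly spread, with 56, 539 and 152 cells in Dram2 wt/wt replicates 1, 2 and 3 and 68, 102 and 575 cells in Dram2 ko/ko replicates 1, 2 and 3. Dram2 ko/ko replicate 3 is also the only sample of batch 2. The deposited cell names carry no barcode sequence, so barcodes shared between libraries could not be counted.

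Of the 6 genes, 4 had an entry in the RefSeq promoter table (GRCm38.p6). The 250 bases before their start are shown because Otx2, Lhx2, Six3 and Pax6 were all read in the same annotated cell type while their start regions differ in makeup. Capitals mark CCAAT or its reverse complement, and GGGCGG or its reverse complement.
Otx2 (chr14:48667509-48667758, minus strand): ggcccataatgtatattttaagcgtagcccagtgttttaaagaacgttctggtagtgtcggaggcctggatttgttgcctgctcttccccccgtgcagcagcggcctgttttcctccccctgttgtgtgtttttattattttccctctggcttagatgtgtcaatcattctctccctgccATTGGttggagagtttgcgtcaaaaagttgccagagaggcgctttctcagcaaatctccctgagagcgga
Pax6 (chr2:105668646-105668895, plus strand): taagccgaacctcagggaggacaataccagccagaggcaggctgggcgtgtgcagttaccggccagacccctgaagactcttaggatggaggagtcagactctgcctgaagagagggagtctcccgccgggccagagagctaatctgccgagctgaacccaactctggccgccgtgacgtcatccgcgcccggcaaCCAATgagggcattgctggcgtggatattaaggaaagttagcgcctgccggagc
Six3 (chr17:85620584-85620833, plus strand): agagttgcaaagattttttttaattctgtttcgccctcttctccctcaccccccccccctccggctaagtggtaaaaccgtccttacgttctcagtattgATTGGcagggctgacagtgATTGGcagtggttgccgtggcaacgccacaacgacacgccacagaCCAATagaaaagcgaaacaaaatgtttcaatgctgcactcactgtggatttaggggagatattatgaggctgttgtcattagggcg
Lhx2 (chr2:38339031-38339280, plus strand): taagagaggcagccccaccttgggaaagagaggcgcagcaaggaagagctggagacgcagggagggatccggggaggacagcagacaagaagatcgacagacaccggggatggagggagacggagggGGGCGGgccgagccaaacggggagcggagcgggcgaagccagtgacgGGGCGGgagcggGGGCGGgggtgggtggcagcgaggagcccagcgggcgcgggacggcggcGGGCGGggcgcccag

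The Lhx2 window was the richest in G and C of the 4, at 72.8%, with 25 CG dinucleotides and 4 copies of GGGCGG, and it held no CCAAT. Pax6 followed at 60.8% G and C, with 1 CCAAT. The Otx2 and Six3 windows were at 49.2% and 48.8%, below the median of 52.4% over all 32817 promoters in the table, and held 1 and 3 copies of CCAAT. Counted on either strand, 33.8% of all these promoters held CCAAT and 32.7% held GGGCGG. The OTX-type word TAATCC and the homeodomain-type word TAATTA, which overlap in their first 4 letters, were in 6.25% and 4.85% of all promoters and in none of the 4 shown, which says only that these letters are not in these windows. The genes themselves lie (GRCm38, GENCODE M21) as follows: Otx2 at chr14:48657677-48673819, Pax6 at chr2:105668900-105697364, Six3 at chr17:85613608-85629302, Lhx2 at chr2:38339281-38369733, Sox9 at chr11:112782224-112787760 and Vax2 at chr6:83711264-83738313. Of all 31-base words that the final 400 bases of their transcripts hold, between 0% (Otx2, Lhx2) and 4.78% (Vax2) also occurred in a transcript of another gene.

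Otx2 and Lhx2 were RPE genes in these cultures: both were present in the RPE cells of every sample and nearly absent elsewhere. The cell types are clusters of the same cells by their own expression, so differences between cell types are given as a description with no test. Otx2 stood at 84.0, 71.6 and 103 CPM in the RPE cells of Dram2 wt/wt replicates 1, 2 and 3, and at 103, 104 and 57.5 CPM in those of Dram2 ko/ko replicates 1, 2 and 3. The lowest values belonged to replicate 2 of Dram2 wt/wt and replicate 3 of Dram2 ko/ko, the samples with most RPE cells, and the genotypes overlapped. Lhx2 varied least of the 6, at 105, 106 and 109 CPM in wt/wt and 97.6, 98.9 and 107 CPM in ko/ko RPE cells, which is 104 ± 4.57 CPM over the 6 samples. In the other 7 types the mean of Otx2 lay between 0 and 0.501 CPM and that of Lhx2 between 0 and 0.919 CPM, and the sample ranges of these types overlapped one another, except that Lhx2 had no UMI in Myeloid cells. No UMI of Otx2 was counted in Pericyte cells, where a count of 0 allows up to 0.562 CPM.

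Counted per cell, with each cell thinned to 4000 UMIs, 18.5% of 1458 RPE cells held a UMI of Otx2 (exact 95% interval 16.5% to 20.5%) and 28.3% a UMI of Lhx2 (26.0% to 30.7%). Without thinning the shares were 49.1% and 68.4%. Endothelial cells, which should lack both, gave 0 of 279 cells for Otx2, which by the exact interval allows a share of up to 1.31%, and 1 of 279 for Lhx2. The median depth before thinning was 22905.5 UMIs in RPE and 9262.5 in Endothelial cells. The intervals cover counting error only. Outside the RPE annotation, 66 of 23936 cells held 1 UMI of Otx2 and 10 held 2 or more, and 9 of these 10 came from replicate 2 of Dram2 wt/wt and replicate 3 of Dram2 ko/ko.

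**Figure D1:**
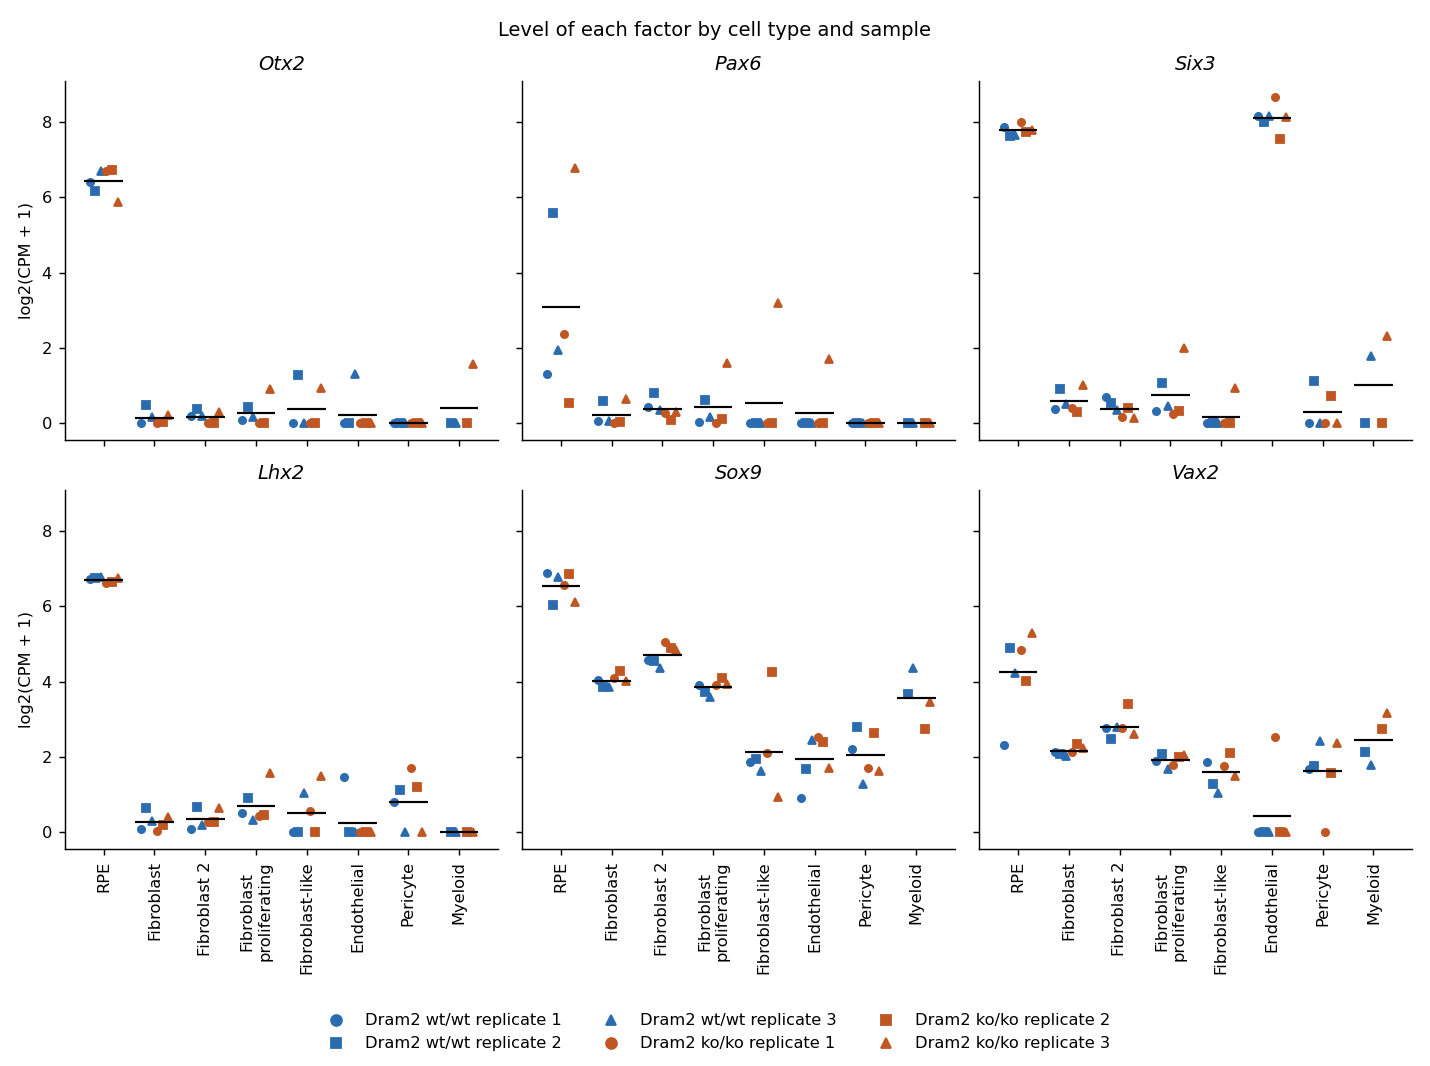
Level of each factor as log2(CPM + 1) in each annotated cell type, 1 point per sample with at least 10 cells of the type, blue for Dram2 wt/wt and orange for Dram2 ko/ko, with a black line at the mean of the log values. Otx2 and Lhx2 are high in RPE cells alone, Six3 is also high in all 6 Endothelial sums, and Sox9 is seen in fibroblast types too.

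Six3 was high in 2 unrelated cell types. In RPE cells it was at 235, 196 and 200 CPM in wt/wt and 256, 212 and 219 CPM in ko/ko samples, and in Endothelial cells at 288, 256 and 283 CPM in wt/wt and 403, 187 and 282 CPM in ko/ko samples. The means were 220 ± 22.6 CPM and 283 ± 70.1 CPM (SD, n = 6) and the sample ranges overlapped, though Endothelial cells were the higher in 5 of the 6 samples. In the other 6 types the mean of Six3 was at most 1.62 CPM. Thinned to 4000 UMIs, 44.4% of 1458 RPE cells (41.8% to 47.0%) and 61.6% of 279 Endothelial cells (55.7% to 67.4%) held a UMI of Six3, against 0 of 81 Myeloid cells (0% to 4.45%). Per sample these shares did not overlap, at 38.4% to 51.0% in RPE and 52.9% to 77.1% in Endothelial cells. These are Endothelial cells by their defining markers: the vascular cadherin gene Cdh5 averaged 971 ± 169.2 CPM and Pecam1, an adhesion molecule of endothelium, 653 ± 127 CPM. Of the 15 RPE markers, 11 had no UMI in Endothelial cells. Only 7 of the 15 reached 5 CPM in RPE cells. Of these, Rgr, Mlana, Ttr and Rlbp1 had no UMI in Endothelial cells, while Krt18 and Otx2 averaged 1.10 and 0.249 CPM there. Mitf, the remaining gene of the 7, also had UMIs in Endothelial cells, at a level not reported here. Rdh5, which is not on the list, averaged 1.04 CPM there. The other 8 averaged at most 3.94 CPM in RPE cells, so a 0 tells less for them. In Endothelial cells the summed level of the list was 1.49 to 8.82 CPM in wt/wt and 0 to 4.802 CPM in ko/ko samples, against 307 to 1197 CPM in RPE cells over both genotypes. Apart from Mitf, the RPE markers that were well read in RPE cells were thus at or near 0 where Six3 was high in Endothelial cells. Its opposite-strand neighbour Six3os1, a noncoding RNA gene, was also in both types, at 33.2 ± 3.34 CPM in RPE and 88.5 ± 35.5 CPM in Endothelial cells, and lowest among the Endothelial sums in Dram2 ko/ko replicate 2 (19.3 CPM), the sample with the lowest Six3. The annotated spans of Six3 and Six3os1 overlap by 4791 bases, and although Cell Ranger by default counts reads in the sense of the gene only, the setting used is not given in the sources used here.

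Sox9 and Vax2 were highest in the RPE, and Sox9 was also read in fibroblasts. Sox9 was highest in RPE cells, at 117, 64.6 and 109 CPM in wt/wt and 94.0, 116 and 68.6 CPM in ko/ko samples, and lowest there in the same pair of samples as Otx2. It came next in Fibroblast 2 cells at 25.6 ± 4.84 CPM, then in Fibroblast cells at 15.4 ± 1.85 CPM and Fibroblast proliferating cells at 13.6 ± 1.76 CPM (SD, n = 6). The samples of RPE, Fibroblast 2 and Fibroblast cells did not overlap one another for Sox9, and those of Fibroblast and Fibroblast proliferating cells did. Myeloid cells were at 11.8 ± 5.87 CPM (n = 4), and Fibroblast-like, Pericyte and Endothelial cells averaged 3.15 to 4.99 CPM.

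Vax2 was also highest in RPE cells, with Fibroblast 2 cells next. In RPE cells it ranged widely, from 3.98 CPM in Dram2 wt/wt replicate 1 through 28.8 and 17.8 CPM in replicates 2 and 3 to 27.7, 15.3 and 38.2 CPM in Dram2 ko/ko replicates 1, 2 and 3. Fibroblast 2 cells were at 6.15 ± 1.78 CPM, Fibroblast cells at 3.49 ± 0.373 CPM and Fibroblast proliferating cells at 2.80 ± 0.403 CPM, and Myeloid cells at 4.88 ± 2.48 CPM (n = 4). Because Dram2 wt/wt replicate 1 was so low, RPE and Fibroblast 2 samples overlapped for Vax2. After thinning, a UMI of Sox9 was in 22.2% of RPE, 11.1% of Fibroblast 2 and 5.98% of Fibroblast cells, against 1.43% of Endothelial cells, and a UMI of Vax2 in 10.4%, 2.04% and 1.40% against 0 of 279. The exact 95% interval of Vax2 in Fibroblast cells, 1.201% to 1.62%, overlaps that in Endothelial cells, 0% to 1.31%. Overlap of intervals is no test, and whether these shares differ was not tested. The pooled level was 3.47 CPM in Fibroblast and 0.557 CPM (2 UMIs) in Endothelial cells. The unthinned shares were 8.47% and 0.347% at their unequal depths. The intervals of Fibroblast proliferating and Fibroblast-like cells overlap that of Endothelial cells too. The interval of Fibroblast 2 cells, 1.56% to 2.61%, lies above that of Endothelial cells.

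Pax6 split the samples. Its level in RPE cells was 1.49, 47.4 and 2.83 CPM in Dram2 wt/wt replicates 1, 2 and 3 and 4.21, 0.464 and 108 CPM in Dram2 ko/ko replicates 1, 2 and 3. Only replicate 2 of Dram2 wt/wt and replicate 3 of Dram2 ko/ko were above 5 CPM. One of them is wt/wt of batch 1 and the other ko/ko of batch 2, so neither the genotype nor the batch separates them from the rest, and they are the 2 samples with most RPE cells. The mean over samples, 27.4 CPM, was 11.3 CPM without Dram2 ko/ko replicate 3. The same pair also had the highest Pax6 in the sum of the 4 fibroblast types, at 0.534 and 1.06 CPM against at most 0.0859 CPM in the other samples, and the highest Otx2, Six3 and Lhx2 there. In RPE cells they had the lowest Krt18, at 420 and 231 CPM against 739 to 976 CPM in the other samples. What part the number of RPE cells captured has in this split was not tested.

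Within those 2 samples Pax6 and Otx2 were found in partly different cells. To compare cells at equal depth, RPE cells of 8000 or more UMIs were thinned to 8000. In Dram2 wt/wt replicate 2, 26.5% of 332 cells held Pax6 and 38.9% held Otx2. Pax6 was in 20.2% of the 129 cells with Otx2 and in 30.5% of the 203 cells without it. In Dram2 ko/ko replicate 3, 50.3% of 513 cells held Pax6 and 28.7% held Otx2, and Pax6 was in 38.8% of the 147 cells with Otx2 and in 54.9% of the 366 without. In the other 4 samples 0 to 2.44% of cells held Pax6. Detection of Pax6 thus ran lower in cells with Otx2 in both samples, and 26 and 57 cells held both.

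**Figure D2:**
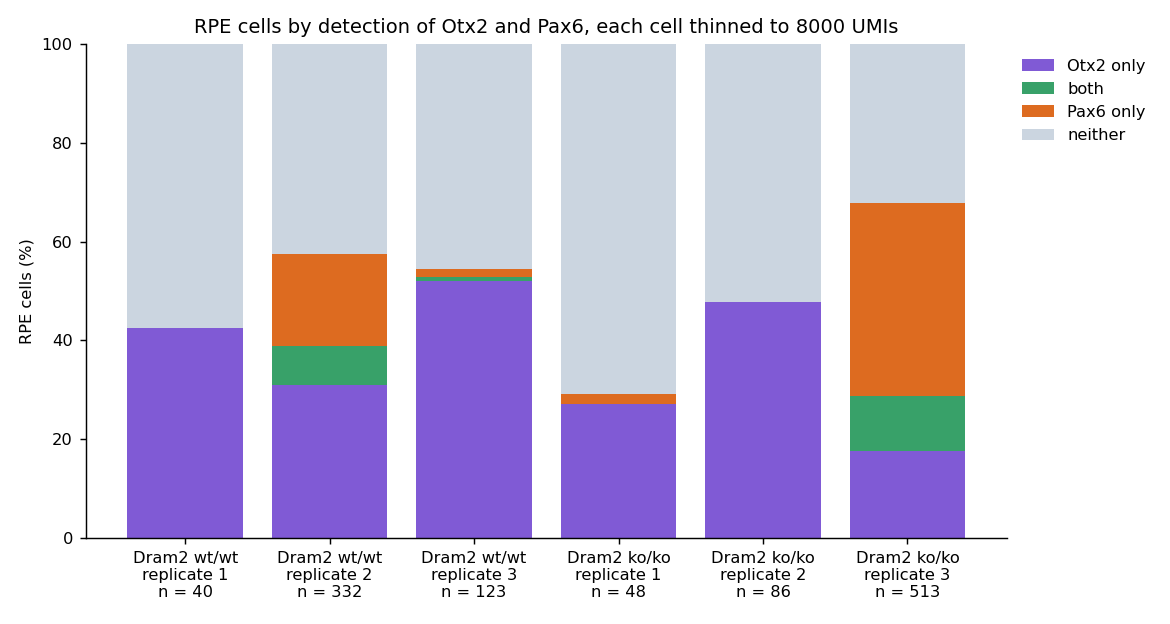
Share of RPE cells of each sample, in percent, with a UMI of Otx2 only, of both genes, of Pax6 only or of neither after thinning every cell to 8000 UMIs; n is the number of cells of that depth. Pax6-only cells make up a visible share in Dram2 wt/wt replicate 2 (62 cells) and Dram2 ko/ko replicate 3 (201 cells) and number at most 2 in each other sample.

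The Pax6-only and Otx2-only cells were compared for other genes by summing their UMIs, again as a description, since the classes were set from the same cells. Median depth was 25155.5 and 30416 UMIs in Dram2 wt/wt replicate 2, and 27845 and 33635.5 UMIs in Dram2 ko/ko replicate 3, for Pax6-only and Otx2-only cells. The other eye field factors of the set were present in both kinds of cell: in Dram2 wt/wt replicate 2, Six3 was at 190 against 238 CPM and Lhx2 at 114 against 136 CPM, and in Dram2 ko/ko replicate 3 Six3 was at 253 against 229 CPM and Lhx2 at 134 against 106 CPM. Sox9 was at 48.0 against 79.2 CPM in the first of these samples and at 84.0 against 65.9 CPM in the second, and Vax2 at 39.8 against 28.3 CPM and 43.7 against 36.1 CPM. Only Vax2 of these genes differed in the same direction in both samples.

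Of the RPE markers, Krt18 and Rgr were much lower in the Pax6-only cells. Krt18 was at 39.2 against 588 CPM in Dram2 wt/wt replicate 2 and at 47.4 against 427 CPM in Dram2 ko/ko replicate 3, and Rgr at 0.552 against 35.3 CPM and at 0 against 17.1 CPM. The 14 RPE markers other than Otx2 summed to 48.6 and 54.6 CPM in Pax6-only cells and to 663 and 465 CPM in Otx2-only cells. Most of each sum was Krt18, so the sums add little to it. Rdh5, a retinol dehydrogenase of the visual cycle, was also lower, at 62.9 against 101 CPM and 40.8 against 79.8 CPM. Not every marker went this way. Mitf was at 3.31 against 5.04 CPM in Dram2 wt/wt replicate 2 but at 3.29 against 3.25 CPM in Dram2 ko/ko replicate 3. Tyrp1 in Dram2 wt/wt replicate 2 and Best1 in Dram2 ko/ko replicate 3 had UMIs in Pax6-only cells and none in Otx2-only cells.

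Of the 19 eye field and optic cup factors, 10 were higher in the Pax6-only cells of both samples, 5 were lower in both and 4 did neither. The shares over all genes were not computed, so these counts say nothing particular about the list. Among the lower ones, Nr2f2 was at 52.5 against 89.9 CPM and 45.5 against 108 CPM, and the forkhead gene Foxd1 at 6.07 against 20.4 CPM and 5.53 against 21.6 CPM. Among the higher ones, Nr2f1 was at 91.7 against 14.3 CPM and 77.5 against 25.4 CPM. Otx1, the paralogue of Otx2, was at 41.4 against 3.08 CPM in Dram2 wt/wt replicate 2 and 42.4 against 17.4 CPM in Dram2 ko/ko replicate 3. Rax, a retinal homeobox gene, was at 28.2 against 4.48 CPM and 33.5 against 27.2 CPM. Six6, a close relative of Six3, was at 8.84 and 14.5 CPM in Pax6-only cells and had no UMI in Otx2-only cells of either sample. A pair of genes chosen after their values were seen, Optc (opticin, a protein of the vitreous) and the zinc-finger factor Zic1, were at 200 and 243 CPM and at 83.4 and 83.2 CPM in Pax6-only cells and at most 4.14 CPM in Otx2-only cells. Fibroblast markers summed to 1277 against 812 CPM and to 496 against 345 CPM, so those were higher in the Pax6-only cells too, and of the 7 photoreceptor markers no more than 3 had any UMI. Lrat, an enzyme of retinoid storage, had no UMI in the Pax6-only cells of either sample; Rpe65 had none there either, nor in the Otx2-only cells of Dram2 wt/wt replicate 1 and of Dram2 ko/ko replicate 2, so it does not set the Pax6-only cells apart.

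**Figure D3:**
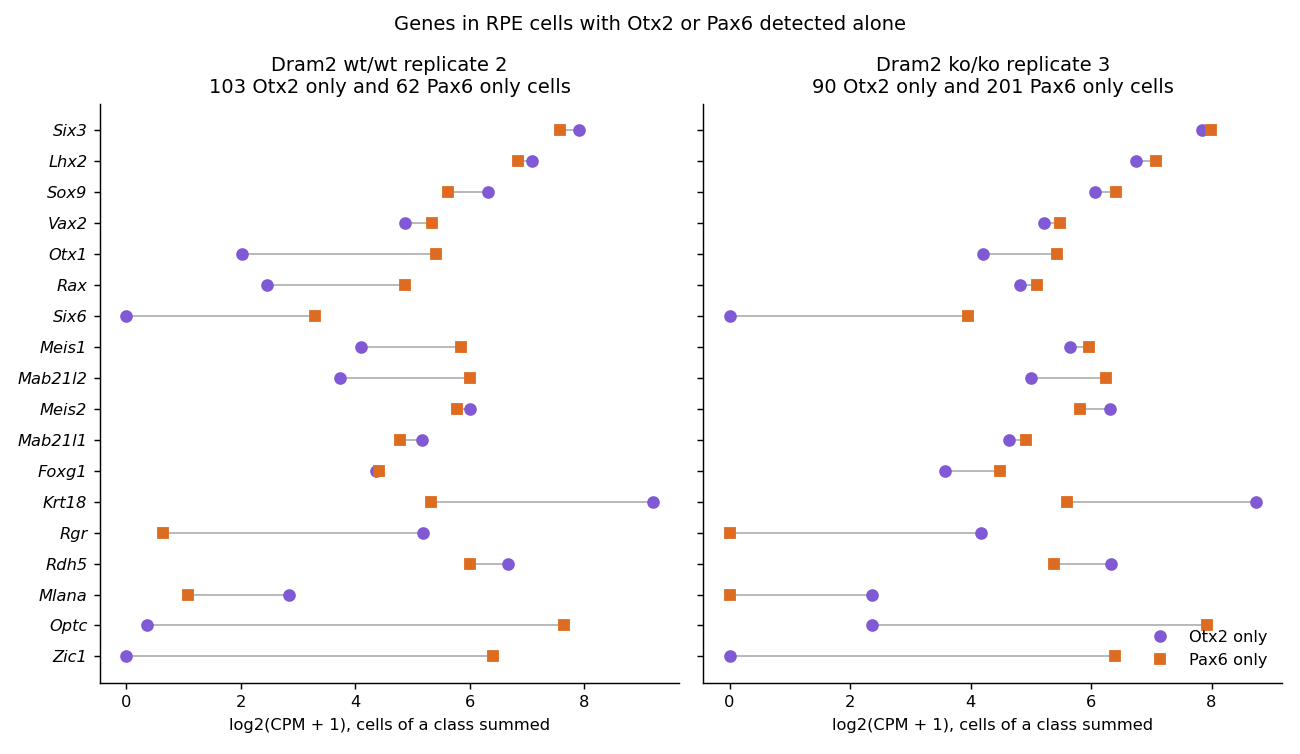
Level of 18 genes as log2(CPM + 1) in the summed RPE cells with Otx2 detected alone (circles) or Pax6 detected alone (squares) in the 2 samples that hold both kinds, joined by a line per gene. Six3 and Lhx2 lie close together in both panels, Krt18 and Rgr lie to the left for Pax6-only cells, and Otx1, Six6, Optc and Zic1 lie to the right.

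Leaving out every RPE cell with a UMI of Pax6 kept 389 of 539 cells in Dram2 wt/wt replicate 2 and 178 of 575 in Dram2 ko/ko replicate 3. Otx2 then stood at 82.4 and 83.2 CPM in these 2 samples against 85.0 to 105 CPM in the other 4. This setting was chosen after seeing the data, and since cells with Pax6 held Otx2 less often, a higher Otx2 without them follows from the cells removed. Sox9 stayed lowest in these samples, at 72.4 and 58.5 CPM.

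Other genes of the optic cup and of the RPE were read from lists. Of 19 eye field and optic cup factors, 12 had their highest mean in RPE cells and 12, not all the same genes, averaged 5 or more CPM there. The share of all genes that are highest in RPE cells was not computed, for this list or those below. Such counts therefore say nothing particular about a list. The highest in RPE cells were Hes1, a Notch effector, at 168 ± 12.4 CPM, the orphan receptor gene Nr2f2 at 86.7 ± 11.8 CPM, the TALE homeobox gene Meis2 at 63.5 ± 9.38 CPM and Mab21l1 at 29.7 ± 5.22 CPM. Hes1 was higher in Endothelial (260 CPM) and Nr2f2 in Fibroblast 2 cells (257 CPM). Vax1, the nearest relative of Vax2, was at 0.0447 CPM in RPE cells, below the 0.0757 CPM that 3 counts make there. Rax and Otx1 followed the split of Pax6, with ranges of 0.929 to 28.0 CPM and 0.464 to 27.2 CPM over samples.

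Of 8 RPE factors and partners, Crx alone had its highest mean in RPE cells, at 0.0291 CPM, also below the level of 3 counts. Mitf, which works with Otx2 on pigment genes, averaged 8.92 ± 4.11 CPM, and the Hippo pathway factors Tead1 and Yap1 were at 219 ± 15.5 and 57.4 ± 9.53 CPM. Of 14 RPE genes downstream of these factors, 11 were highest in RPE cells but 5 reached 5 CPM: Rdh5 at 75.8 ± 12.3 CPM, Rgr, Mlana at 8.56 ± 4.54 CPM, the thyroxine carrier Ttr at 6.86 ± 3.40 CPM and the retinal-binding protein gene Rlbp1 at 6.59 ± 2.61 CPM. The pigment enzymes Tyr, Dct and Tyrp1 averaged 0.505 to 2.96 CPM. Among 13 relatives of the 6 genes, the highest in RPE cells were Lhx9, the nearest relative of Lhx2, at 13.2 ± 3.94 CPM, Six4 at 7.50 ± 2.43 CPM and Otx1 at 7.26 ± 10.7 CPM. Six2 was highest in Fibroblast 2 cells, at 17.3 CPM. Of the 4 antisense partners, Six3os1 alone reached 5 CPM in RPE cells; Otx2os1 was at 1.53 ± 0.837 CPM, Vax2os at 0.881 ± 0.672 CPM and Pax6os1 at 0.0592 ± 0.0918 CPM.

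The genes whose pattern was most like each factor were ranked by Pearson's r of log2(CPM + 1) over 46 sums of a cell type in a sample, among 13054 genes with 5 or more CPM in at least 1 type. The sums share libraries and most are near 0 for the RPE genes, so r is a description. For Otx2 the nearest were Ermn (r = 0.97), Cldn4 (0.97) and Lrit1 (0.96), and for Lhx2 they were Bmp7 (0.97), Slc38a3 (0.97) and Gm3764 (0.96). Six3 was nearest to Six3os1 (0.98), Ocln (0.95) and Prnd (0.94), 3 genes that were read in both RPE and Endothelial cells, Prnd at 26.6 and 202 CPM. Pax6 was nearest to Otx1 (0.91), Hmx1 (0.91) and Zic1 (0.89). Sox9 was nearest to Txnrd1 (0.87), Gldc (0.87) and Rtn4rl1 (0.86), and Vax2 to Rragd (0.78), Ppp1r1a (0.77) and Sox9 (0.76). Among the 6 factors themselves the closest pair was Otx2 and Lhx2 (r = 0.96) and the most distant Six3 and Vax2 (r = 0.10).

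Whether Dram2 loss changed the 6 factors was tested on UMI sums per sample and cell type with voom-limma, with p-values adjusted by Benjamini-Hochberg over all genes tested, and calls made below 0.05. None of the 6 was called in RPE cells, where all 6 were tested. Across all genes tested in RPE cells the share called was 0%: 0 of 12333, with 573 at an unadjusted p under 0.05, 0 called by edgeR and 20 by DESeq2. With no gene called by limma or edgeR, the absence of calls says nothing particular about these 6. The log2 fold change, ko/ko over wt/wt, was -0.01 for Otx2 (SE 0.29), 0.15 for Six3 (SE 0.16), -0.06 for Lhx2 (SE 0.12) and -0.03 for Sox9 (SE 0.31), each with an adjusted p of 1.00 by limma. Lhx2 had the smallest standard error and the genotypes overlapped for it, as they did for all 6.

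Pax6 had a log2 fold change of 1.15 in RPE cells with a standard error of 1.84 (limma adjusted p = 1.00), which turned to -2.86 without Dram2 ko/ko replicate 3 (adjusted p = 0.703), that is, within batch 1. Vax2 had one of 0.68 (SE 0.55, limma adjusted p = 1.00), and 0.68 lies within the spread of its samples.

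**Figure D4:**
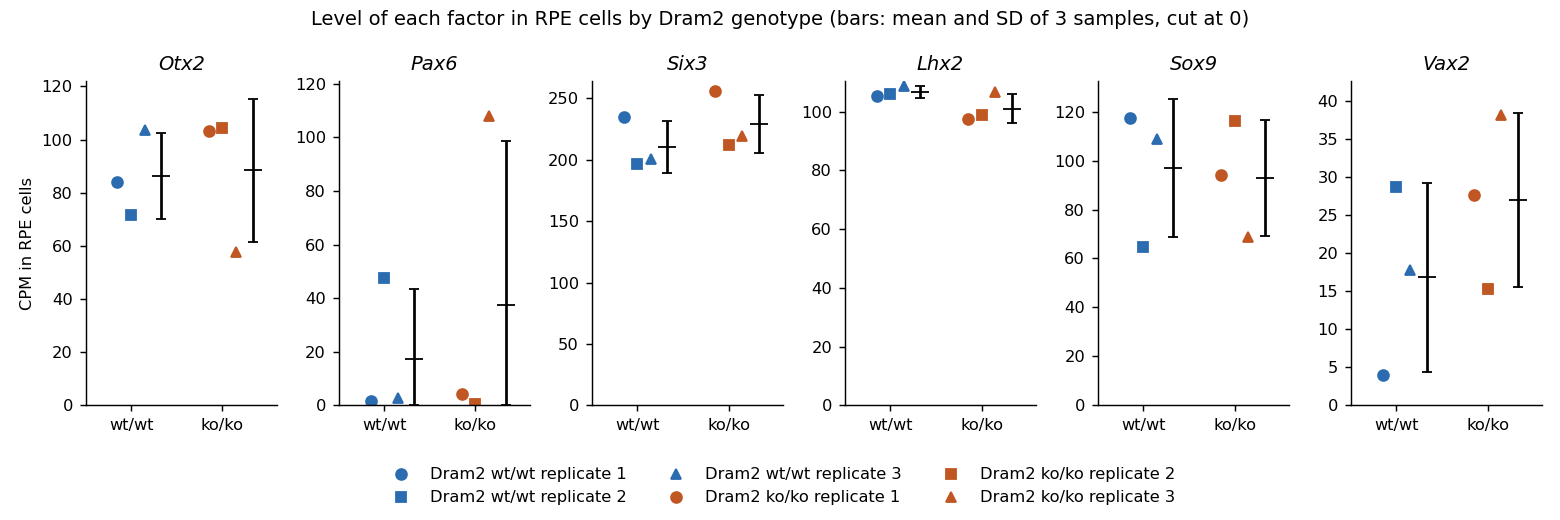
CPM of each factor in RPE cells of the 3 Dram2 wt/wt (blue) and 3 Dram2 ko/ko (orange) samples, with the mean and SD of each genotype beside the points and lower bars cut at 0. The genotypes overlap in all 6 panels, Lhx2 varies least, and Pax6 is high in 1 sample of each genotype.

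The share of RPE cells with a UMI, thinned to 4000 UMIs and compared over samples by an exact two-sided permutation test, did not separate the genotypes either. With 3 samples against 3 this test cannot go below 0.1, and 34 RPE cells under 4000 UMIs were left out, 13 of them wt/wt and 21 ko/ko. The means were 21.6% ± 8.76 and 25.7% ± 10.3 for Otx2, 43.4% ± 6.70 and 46.9% ± 1.69 for Six3, and 26.4% ± 4.34 and 25.8% ± 7.79 for Lhx2 in wt/wt and ko/ko samples (SD, n = 3, exact permutation p = 0.70, 0.40 and 1.00). For Sox9 they were 27.1% ± 8.82 and 23.2% ± 8.34, for Vax2 5.24% ± 5.18 and 9.94% ± 3.35 and for Pax6 4.39% ± 7.61 and 10.4% ± 18.0 (exact permutation p = 0.60, 0.30 and 1.00). Adjusted over the 6 factors every p was 1.00. The direction depended on the depth: at 8000 UMIs the difference, ko/ko minus wt/wt, was -10.3 percentage points for Otx2, -3.75 for Six3 and 0.427 for Sox9, and without thinning it was 3.94 for Lhx2.

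Outside the RPE the genotype effect could be fitted for the factors with enough UMIs, and none of them was called. In the sums over all cells of a sample, where fewer cells of a type and less RNA per cell cannot be told apart, 0% of 22580 genes were called (0, with 1583 at an unadjusted p under 0.05, 0 by edgeR and 378 by DESeq2). The share called was 0.00503% in Fibroblast (1 of 19886 genes), 0.222% in Fibroblast 2 (33 of 14882), 0.624% in Fibroblast proliferating (113 of 18113), 0.0118% in Pericyte (1 of 8454) and 0.0296% in Myeloid cells (2 of 6747), and 0% in Fibroblast-like (0 of 7218 by limma, 367 at an unadjusted p under 0.05, 0 by edgeR and 23 by DESeq2) and Endothelial cells (0 of 6682 by limma, 350 at an unadjusted p under 0.05, 0 by edgeR and 13 by DESeq2). In Endothelial cells Six3 alone of the 6 passed the filter on low counts, and its log2 fold change was 0.03 (SE 0.23, limma adjusted p = 0.996). In Fibroblast-like, Pericyte and Myeloid cells none of the 6 passed that filter. In Fibroblast and Fibroblast proliferating cells 4 passed, Six3, Lhx2, Sox9 and Vax2, and in Fibroblast 2 cells Sox9 and Vax2.

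Sox9 came nearest to a call, in Fibroblast 2 cells. Its level was 22.7, 22.3 and 19.5 CPM in Dram2 wt/wt replicates 1, 2 and 3 and 32.4, 28.7 and 27.9 CPM in Dram2 ko/ko replicates 1, 2 and 3, and the genotypes did not overlap. The log2 fold change was 0.47 (SE 0.12, limma adjusted p = 0.238). Over the alternatives the adjusted p ranged from 0.157 to 0.821. In Fibroblast 2 cells 4.81% of all genes tested had every ko/ko sample above every wt/wt sample, so the pattern itself is a common one.

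Over all cells Sox9 was at 17.4, 18.7 and 16.6 CPM in wt/wt and 20.03, 20.7 and 23.7 CPM in ko/ko samples, again without overlap, a pattern that 4.2% of all genes tested there had, with a log2 fold change of 0.31 (SE 0.10, limma adjusted p = 0.378). In Fibroblast proliferating cells it was at 14.0, 12.1 and 10.998 CPM and 14.1, 16.0 and 14.3 CPM, a pattern of 4.76% of genes, with 0.26 (SE 0.12, limma adjusted p = 0.761). In Fibroblast cells the values were 15.4, 13.6 and 13.4 CPM and 16.2, 18.4 and 15.1 CPM, which overlap, with 0.23 (SE 0.11, limma adjusted p = 0.776). Sox9 was thus numerically higher in ko/ko samples in all 3 of these fibroblast types but not called in any, and these types come from the same 6 libraries. Vax2 had log2 fold changes of 0.21, 0.31 and 0.08 in Fibroblast, Fibroblast 2 and Fibroblast proliferating cells, with limma adjusted p of 0.911, 0.887 and 0.979.

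**Figure D5:**
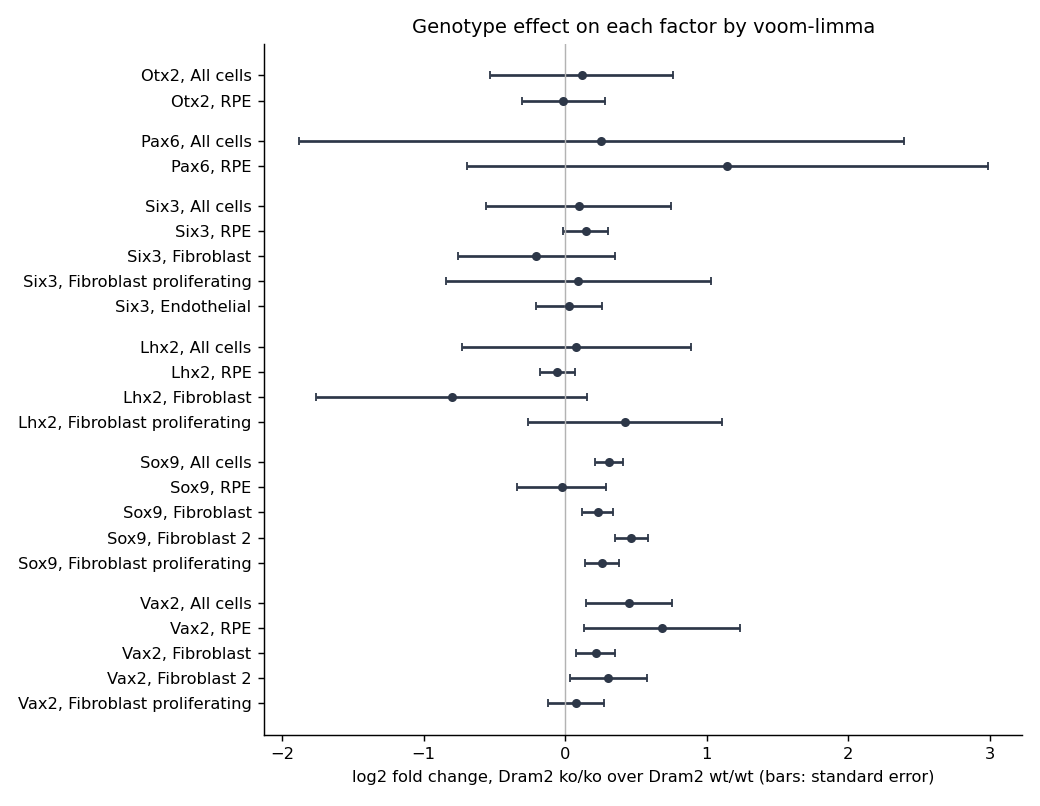
Log2 fold change of ko/ko over wt/wt for each factor in each comparison in which it was tested, with its standard error, from voom-limma fits. The estimates for Sox9 in the fibroblast types and over all cells lie to the right of 0, the widest bars are those of Pax6, and no estimate was called.

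A difference of the genotype effect between RPE and Fibroblast cells was tested for all 6 factors as an interaction in a fit with the sample as a factor. For the 4 that passed the filter in both cell types, it was 0.23 (SE 0.62) for Six3, 0.67 (SE 0.90) for Lhx2, -0.26 (SE 0.23) for Sox9 and 0.43 (SE 0.56) for Vax2 on the log2 scale, each with a limma adjusted p of 1.00. Otx2 and Pax6 did not pass the filter in the fit of Fibroblast cells alone. Their differences were larger, at 1.22 (SE 1.51) and 1.29 (SE 0.61, limma unadjusted p = 0.065), and were not called. The fit called 0 of 19951 genes (371 at an unadjusted p under 0.05).

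The other optic cup and RPE genes behaved likewise between genotypes: no gene of the 5 lists was called in any comparison. In RPE cells the 12 tested eye field and optic cup factors had a median log2 fold change of 0.01, with 6 higher in ko/ko. The 6 tested RPE factors and partners had a median of -0.16 with 1 higher, the 8 tested downstream RPE genes a median of -0.54 with 0 higher, and the 5 tested relatives a median of -0.75 with 1 higher. Over all 12333 genes the median was 0.01 and 51.1% were higher in ko/ko. All 8 downstream genes thus had lower estimates in ko/ko RPE cells, none past the test. In the same cells the fibroblast markers had a median of -0.96 (7 of 7 lower, sums of 576 to 1215 CPM in wt/wt and 348 to 585 CPM in ko/ko samples) and the RPE markers summed to 545 to 1139 CPM in wt/wt and 307 to 1197 CPM in ko/ko samples, the lowest being Dram2 ko/ko replicate 3, whose RPE cells held most Pax6; the part of these in the list medians was not tested.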

How the data were processed

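Single-cell suspensions of cultured RPE and choroid from 6 mouse samples were captured on a droplet platform with 3′ libraries. Per the methods of the study and the submitters' processing notes, the authors ran Cell Ranger 3.1.0 on GRCm38, counted exonic reads and clustered cells after batch integration; the deposited table holds raw UMI counts per gene and cell, unnormalized, and a second deposited table gives each cell's sample, genotype, batch, cell type and fibroblast sub-cluster, all used as given. Doublet removal is not given in the sources used here and none was run.

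UMI counts were summed per sample and cell type (at least 10 cells) and over all cells, and divided by their total for CPM. Sums were tested in R 4.3.3 with limma 3.58.1 (voom, TMM factors and filterByExpr from edgeR 4.0.16, no covariate) and Benjamini-Hochberg over all genes. The code was also run on simulated counts with known changes. Those counts had no batch and no differences between samples of a genotype beyond 1 fixed spread, so they do not show how the test behaves in samples this uneven. The alternatives were edgeR's quasi-likelihood test and DESeq2 1.42.0. Cells were thinned by drawing 4000 (or 8000) UMIs without replacement; shares have exact (Clopper-Pearson) 95% intervals, and a CPM of 0 is bounded by 3 counts. Symbols came from a gene name table (52403 of 52636 identifiers matched). The promoter printed is, among the table's rows for a gene, the one whose start is shared within 10 bases by the largest number of GENCODE M21 transcripts, the first on a tie. That start was shared by 5 of 11 transcripts of Otx2, 2 of 26 of Pax6, 1 of 3 of Six3 and 1 of 7 of Lhx2. Other starts of these genes are not shown. Python 3.11.15, scipy 1.17.1 and matplotlib 3.10.9 were used.

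The 6 genes, the lists and the markers were chosen with earlier results of these data known. Named genes are the 6 factors, list genes called or otherwise up to 4 with the highest CPM in RPE cells and those absent, and the 3 genes most correlated with each factor; Optc, Zic1 and other list genes were named after their values were seen, and some list genes are not reported here. The alternative without RPE cells holding Pax6 was also chosen after seeing the data. UMI totals per sample limit the precision of low genes: 3 counts are 0.0757 CPM in RPE and 0.835 CPM in Endothelial cells pooled over samples.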

Additional observations from a re-analysis of the deposited data

How the results depend on the processing

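None of the 6 factors was called between genotypes in any comparison under any of the alternatives run, and the lowest adjusted p was 0.157 (Sox9, Fibroblast 2 cells, without Dram2 ko/ko replicate 3). Levels in RPE, Endothelial and fibroblast cells moved by less than 1 SD in all 116 recomputed values (a gene in a cell type under an alternative). Most of these left out 1 of the 6 samples, and such a mean cannot move by 1 SD, so they are no check. A wide SD also hides large moves: Pax6 in RPE cells went from a mean of 27.4 to 59.6 CPM with all cells pooled, at an SD of 43.5 CPM. Signs of uncalled differences did turn. In shares of RPE cells (ko/ko minus wt/wt, percentage points) Otx2 became -2.13 without thinning and -10.3 at 8000 UMIs, Six3 -3.75 at 8000 UMIs, Lhx2 3.94 without thinning, and Sox9 1.73 without thinning and 0.427 at 8000 UMIs; leaving out 1 sample gave -0.723 to 9.55 for Otx2, -4.39 to 11.2 for Pax6, -3.40 to 3.88 for Lhx2 and -8.94 to 0.0752 for Sox9. Log2 fold changes in RPE cells became 0.053 (edgeR), 0.063 (DESeq2), 0.34 (batch as covariate) and 0.10 (without Pax6 cells) for Otx2, -2.86 (batch) for Pax6, 0.035 (without Pax6 cells) for Lhx2 and 0.24 (batch) for Sox9; for Six3 in Endothelial cells -0.0088 (library size alone) and -0.0018 (no filter). Leaving out 1 sample gave -0.20 to 0.34 for Otx2, -2.86 to 3.63 for Pax6 and -0.34 to 0.22 for Sox9 in RPE cells, -0.24 to 0.32 for Six3 in Endothelial cells, and for Vax2 -0.0073 to 0.46 in Fibroblast 2 and -0.059 to 0.21 in Fibroblast proliferating cells. Only 0 (Otx2, Pax6, Sox9, Vax2), 1 (Six3) or 2 (Lhx2) of the 3 most alike genes were the same by Spearman correlation. The cause of these changes was not tested.

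Replicate numbers are shared by the genotypes, but same-numbered samples did not deviate together (correlations of 0.099, -0.43 and 0.028); with the replicate block 0 factors were called, and the calls over all genes went from 33 to 2 in Fibroblast 2, 113 to 0 in Fibroblast proliferating and 2 to 32 in Myeloid cells. Counts over all genes also moved with the tool (DESeq2 called 378 over all cells and 20 in RPE, 23 in Fibroblast-like, 13 in Endothelial, 15 in Pericyte, 8 in Myeloid, 320 in Fibroblast, 168 in Fibroblast 2 and 320 in Fibroblast proliferating cells; edgeR 1, 11 and 62 in the last 3, 0 in Pericyte and 10 in Myeloid cells), with no filter on low counts (151, 71 and 202, with 20 in Fibroblast-like and 59 in Myeloid cells), with library size alone (8 in Fibroblast 2), with batch as a covariate (118 over all cells, 87 in Fibroblast, 184 in Fibroblast proliferating, 0 in Pericyte), with a minimum of 20 cells (21 in Pericyte; Myeloid cells could not be fitted) and, for leaving out 1 sample, between 0 and 242 over all cells, 0 and 234 in Fibroblast, 0 and 121 in Fibroblast 2, 0 and 290 in Fibroblast proliferating, 0 and 85 in Fibroblast-like, 0 and 3 in Endothelial and 0 and 21 in Pericyte cells, each highest without Dram2 ko/ko replicate 1. In Myeloid cells the 4 such fits that could be made called 6 to 83. In RPE cells they stayed at 0 except with DESeq2.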

Other observations

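Sox9 and Vax2 also varied among the authors' 9 fibroblast sub-clusters, each read as mean CPM over samples with 10 or more cells. Sox9 was at 23.3 ± 4.53 CPM in sub-cluster 3 and 23.0 ± 5.17 CPM in sub-cluster 4, at 14.3 ± 1.70 and 13.5 ± 1.88 CPM in the large sub-clusters 1 and 2, and at 1.52 ± 1.05 CPM in sub-cluster 5 (SD, n = 6). Vax2 was at 6.01 ± 1.63 CPM in sub-cluster 3 but 2.48 ± 0.974 CPM in sub-cluster 4, so sub-clusters with alike Sox9 had Vax2 sample ranges that did not overlap. Sub-clusters 8 and 9 had 10 or more cells in 4 and 3 samples.

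Sox2 and Sox10, relatives of Sox9 that mark neural and neural crest lineages, had their highest means in the cells annotated as Pericyte, at 240 ± 63.0 and 179 ± 36.5 CPM (SD, n = 6), against 0.516 and 3.11 CPM in RPE cells and at most 0.0821 and 0.175 CPM in the other 6 types, while Sox9 was at 3.45 ± 1.85 CPM in the Pericyte cells. The Schwann cell marker Ngfr was at 407 ± 80.8 CPM in these cells and the pericyte marker Rgs5 at 7.79 ± 10.8 CPM. Cspg4 and Pdgfrb, also on the pericyte list, did have UMIs there, and the list summed to 196 to 269 CPM over samples. The Schwann cell markers thus go against the deposited name, while the pericyte markers were divided.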
